A study of Mus musculus with 2 samples.

Results

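The genes described here carry the signal of leukemia inhibitory factor (LIF) through its receptors and STAT3 to the C/EBP transcription factors. They are the 10 rows named Lif, Lifr, Il6st, Il6ra, Osmr, Stat3, Socs3, Cebpb, Cebpd and Cebpa, out of 20634 genes listed in each library. The study sequenced RNA of whole uterus from 1 library labelled Mettl3 ed/ed and 1 labelled Mettl3 f/f, where Mettl3 encodes the enzyme that writes N6-methyladenosine (m6A) on RNA. Both came from pregnant females 6 to 8 weeks old, mated with fertile males and killed on gestational day 4, with the plug counted as day 1. The letters of the genotypes, the strain, any Cre driver and the number of animals in each library are not stated in the labels used here. With 1 library per genotype there is no replicate check, and every difference below is between these libraries.

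On the day when the mouse uterus becomes receptive, its glands release LIF, a cytokine of the interleukin-6 family, and mice without Lif are infertile because embryos do not implant. LIF binds its receptor LIFR, which pairs with the shared subunit gp130, the product of Il6st. JAK kinases on the pair then phosphorylate STAT3, which enters the nucleus, and SOCS3 is made as its feedback inhibitor. C/EBP factors are basic leucine zipper proteins, of which C/EBPβ is required for the stroma to form decidua and C/EBPδ is a known STAT3 target and a regulator of acute-phase genes.

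The values were taken as FPKM, fragments normalised to transcript length and library size, although their header names no unit. On that reading levels can be set side by side between genes. After adding 1 FPKM to both values, the log2 ratio of ed/ed to f/f was taken, which understates differences of low genes, and calls were made at 2-fold among the 12165 genes with 1 FPKM or more in either library. Of the 10 genes 8 reached that level, whereas Lif and Il6ra did not. Depth was estimated at 17300000 fragments for ed/ed and 18300000 for f/f, and the counting intervals below are 95% exact intervals of the plain FPKM ratio from estimated fragments, which cover counting error only. The defining markers of uterus were present, with all 10 of their list at 1 FPKM or more in at least 1 library and only Foxa2, given below, under it in f/f. Among them was the stromal homeobox gene Hoxa11, at 47.8 FPKM in ed/ed and 91.1 in f/f. Mettl3 itself was at 10.2 FPKM in ed/ed and 10.6 in f/f, with a log2 ratio of -0.05 that turned positive under all 4 other scalings, so the transcript level did not separate the libraries.

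Promoter windows of the 10 genes were searched for short motifs, and 3 are printed because their genes are the feedback inhibitor, the shared receptor subunit and the receptor with the highest ratio. They come from RefSeq on GRCm38.p6 and run from 250 bases before to 50 after the start site, 5′ to 3′ on the gene's strand. Capitals mark TTCNNNGAA, the palindrome bound by STAT factors, or CCAAT on either strand.
Socs3, chr11:117969317-117969616, minus strand: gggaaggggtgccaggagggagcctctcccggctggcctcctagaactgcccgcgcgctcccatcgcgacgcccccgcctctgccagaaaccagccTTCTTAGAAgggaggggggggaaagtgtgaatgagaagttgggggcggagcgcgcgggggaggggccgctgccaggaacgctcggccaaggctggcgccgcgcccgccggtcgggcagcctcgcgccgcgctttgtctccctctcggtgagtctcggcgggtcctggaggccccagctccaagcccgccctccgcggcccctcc
Il6st, chr13:112463820-112464119, plus strand: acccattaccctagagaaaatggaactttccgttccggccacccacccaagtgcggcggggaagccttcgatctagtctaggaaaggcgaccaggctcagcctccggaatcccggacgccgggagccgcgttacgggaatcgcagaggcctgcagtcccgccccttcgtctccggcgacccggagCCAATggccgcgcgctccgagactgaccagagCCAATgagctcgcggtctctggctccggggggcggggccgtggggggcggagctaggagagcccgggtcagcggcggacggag
Osmr, chr15:6874264-6874563, minus strand: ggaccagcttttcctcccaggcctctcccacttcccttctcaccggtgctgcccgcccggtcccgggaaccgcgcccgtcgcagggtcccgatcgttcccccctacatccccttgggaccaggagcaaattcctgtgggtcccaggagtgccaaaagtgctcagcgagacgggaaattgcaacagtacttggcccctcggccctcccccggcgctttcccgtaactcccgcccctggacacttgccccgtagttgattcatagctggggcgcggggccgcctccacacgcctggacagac
Windows were found for 9 of the 10 genes, with 2 for Lifr, and none for Cebpd. Of these 10 windows only that of Socs3 held TTCNNNGAA, as TTCTTAGAA from 154 to 146 bases before the start, against 8.30% of all 32851 windows. CCAAT was in 3 of the 10, for Il6st, Lifr and Stat3, against 37.4% of all. The C/EBP motif TTGCNNAA, searched on both strands, was in 0 of the 10 and in 10.8% of all. The start used for Socs3 lies 681 bases inside the GENCODE gene and that for Osmr 656 bases. The starts for Lifr lie 38958 and 49928 bases inside its gene, and the Lifr window with CCAAT is that of the start at 49928, so other start sites of these genes were not searched. No match says only that these letters are not in the window.

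Cebpd was 8.27-fold higher in ed/ed and the oncostatin M receptor gene Osmr 3.48-fold higher on the log2(FPKM + 1) scale, while the other 6 tested genes lay within 2-fold. Among all tested genes 2.68% were called higher, 6.22% lower and 8.9% in either direction, and of these 8 genes 2 were higher and 0 lower. Osmr entered through its ed/ed value only, and the members were chosen with earlier results of these data known, so the count is no independent support. Il6st came nearest to the threshold on the other side. Stat3 was at the same level in both libraries as deposited. Of the 8 log2 ratios 6 exceeded the median over all tested genes, which was -0.26.

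**Figure D1:**
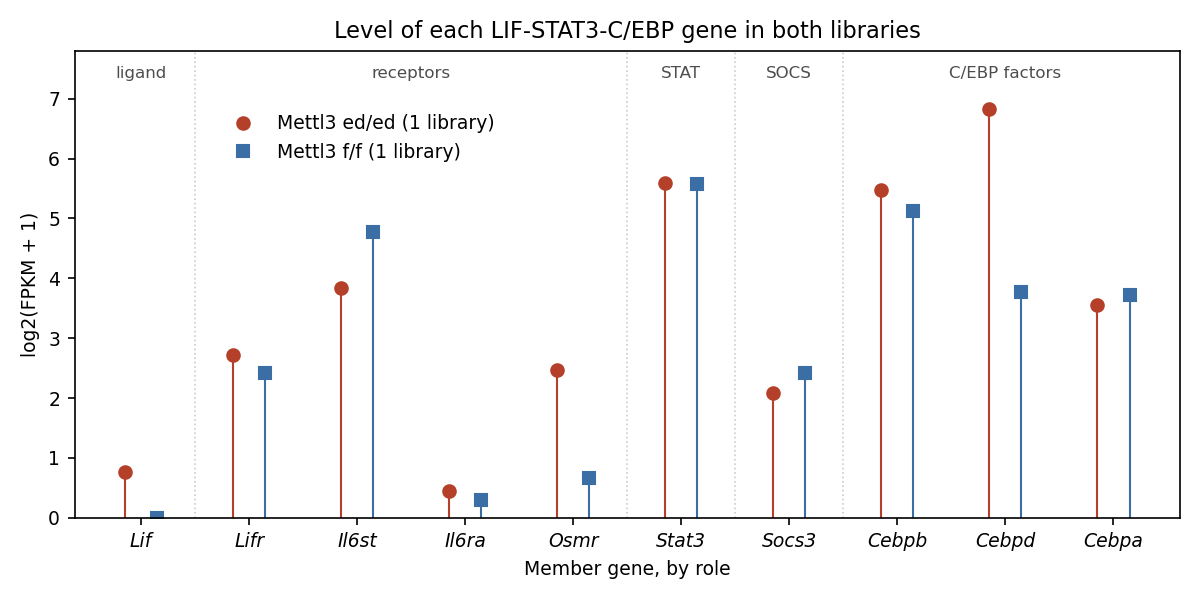
Levels of the 10 genes as log2(FPKM + 1), grouped by role, with red circles for the ed/ed library and blue squares for the f/f library. The widest gaps are those of Cebpd (112 FPKM in ed/ed and 12.7 in f/f) and Osmr (4.52 and 0.587), and Lif is listed at 0 in f/f.

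The ligand gene Lif (chromosome 11, 4257557 to 4272514, plus strand, GRCm38) was at 0.703 FPKM in ed/ed and listed at 0 in f/f. The ed/ed value corresponds to about 43 fragments, and 3 fragments in f/f would have been 0.0461 FPKM. An exact 0 in such tables can be a failed estimate, so no fold is given. Its nearest listed neighbour, 16.5 kb away, is Osm, which encodes the related cytokine oncostatin M and was at 0.158 FPKM in ed/ed and listed at 0 in f/f. Lif is made by uterine glands, and the gland markers are given beside it. Of 11 gland markers 8 reached 1 FPKM, 4 were higher and 1 lower, against 2.68% and 6.22% of all tested genes. Foxa2, a transcription factor required for glands and for Lif, was at 4.40 FPKM in ed/ed and 0.924 in f/f. Of the genes called higher, Foxa2, Sox9 and Wfdc3 passed the filter through their ed/ed values only. Guca2b, called lower, passed through its f/f value only. Most of these calls rest on low values, and with a pseudocount of 5 FPKM 0 were higher and 0 lower, while 1 was higher and 0 lower with a filter at 5 FPKM. The list summed to 1106 FPKM in ed/ed and 1887 in f/f, a sum led by Fxyd4 (chosen after its values were seen) at 1037 and 1856 FPKM, and the protease genes Prss28 and Prss29 were listed at 0 in both. The part of gland content in the Lif value was not tested, and in bulk tissue fewer cells of a type cannot be told apart from less RNA per cell.

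Of 10 other ligands of the family, 6 reached 1 FPKM, with 1 called higher, 0 lower and a median log2 ratio of 0.31. The shares of all tested genes were 2.68% higher and 6.22% lower. Cntf, which encodes ciliary neurotrophic factor, was at 7.50 FPKM in ed/ed and 2.29 in f/f. Its exons share 847 bases on the same strand with Zfp91, which was at 32.4 and 56.5 FPKM, so reads of these genes can be split between them and the Cntf value is uncertain. Clcf1, a cardiotrophin-like cytokine gene, was at 9.84 FPKM in ed/ed and 4.58 in f/f, within 2-fold as deposited and past it under all 4 other scalings. Ctf1, the cardiotrophin-1 gene, was the most abundant ligand at 28.0 FPKM in ed/ed and 39.3 in f/f, and Ctf2 was at 2.75 and 4.07. The Ctf1 and Ctf2 exons overlap by 87 bases on opposite strands, and those of Clcf1 by 311 bases with another coding gene model on the same strand, so their reads are uncertain there.

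Receptor genes differed in their ratios. Il6st (chromosome 13, 112464070 to 112510086, plus strand), the signalling subunit shared by the whole family, was at 13.3 FPKM in ed/ed and 26.2 in f/f. Its log2 ratio was -0.93 as deposited, within 2-fold, and lay between -0.85 and -0.61 under the other scalings. The plain ratio was 0.507, with 0.447 to 0.574 as its counting interval. Lifr (chromosome 15, 7090614 to 7197489, plus strand), which binds LIF itself, was at 5.58 FPKM in ed/ed and 4.36 in f/f. Its log2 ratio was 0.30, within 2-fold, and the counting interval of its plain ratio of 1.28 was 1.04 to 1.57, which leaves out equality but holds no spread between animals.

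Osmr (chromosome 15, 6813577 to 6874969, minus strand) encodes the subunit that pairs with gp130 to bind oncostatin M. It was at 4.52 FPKM in ed/ed and 0.587 in f/f, about 296 and 41 fragments, and entered the comparison through its ed/ed value only. The plain ratio was 7.71 (counting interval 5.51 to 10.9) and the log2 ratio 1.80, rank 59 of the 12165 tested genes. With a pseudocount of 5 FPKM the log2 ratio was 0.77 and Osmr lay within 2-fold. Lifr is its next listed gene, 215.6 kb away, and Rictor, an mTOR complex gene 13.2 kb away on the other side, was at 5.32 FPKM in ed/ed and 7.55 in f/f. Both neighbours lay within 2-fold. Il6ra, the receptor chain for interleukin-6 (chromosome 3, 89864059 to 89913196, minus strand), was at 0.370 FPKM in ed/ed and 0.226 in f/f. On a transcript of 3343 nt these are about 20 and 13 fragments, and the interval of 0.772 to 3.57 spanned equality. Its longest transcript is 8639 nt and would give more fragments and a narrower interval, so these counts do not settle whether the values differ.

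Shares within a library do not depend on how the libraries are scaled to each other. Of the summed FPKM of Il6st, Lifr, Osmr and Il6ra, which was 23.8 in ed/ed and 31.4 in f/f, Il6st held 55.9% in ed/ed and 83.5% in f/f. Osmr held 19.0% in ed/ed and 1.87% in f/f, and Lifr 23.5% and 13.9%. There were 0.340 Osmr units of FPKM for each of Il6st in ed/ed and 0.0224 in f/f, and 0.420 and 0.166 for Lifr. Both were thus more abundant relative to Il6st in ed/ed, Osmr by 15.2 times and Lifr by 2.53 times. The divisor Il6st was itself at 13.3 FPKM in ed/ed and 26.2 in f/f, so part of both shifts lies in its value. Of 4 other receptor genes of the family, 2 reached 1 FPKM and 0 were called. Il11ra1 (chosen after its values were seen), the interleukin-11 receptor gene, was at 40.9 FPKM in ed/ed and 43.0 in f/f. It was above Il6st in both libraries and is not in the sum, and its level relative to Il6st was also higher in ed/ed. Il27ra, a subunit of the interleukin-27 receptor, was at 0.504 FPKM in ed/ed and 1.01 in f/f.

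**Figure D2:**
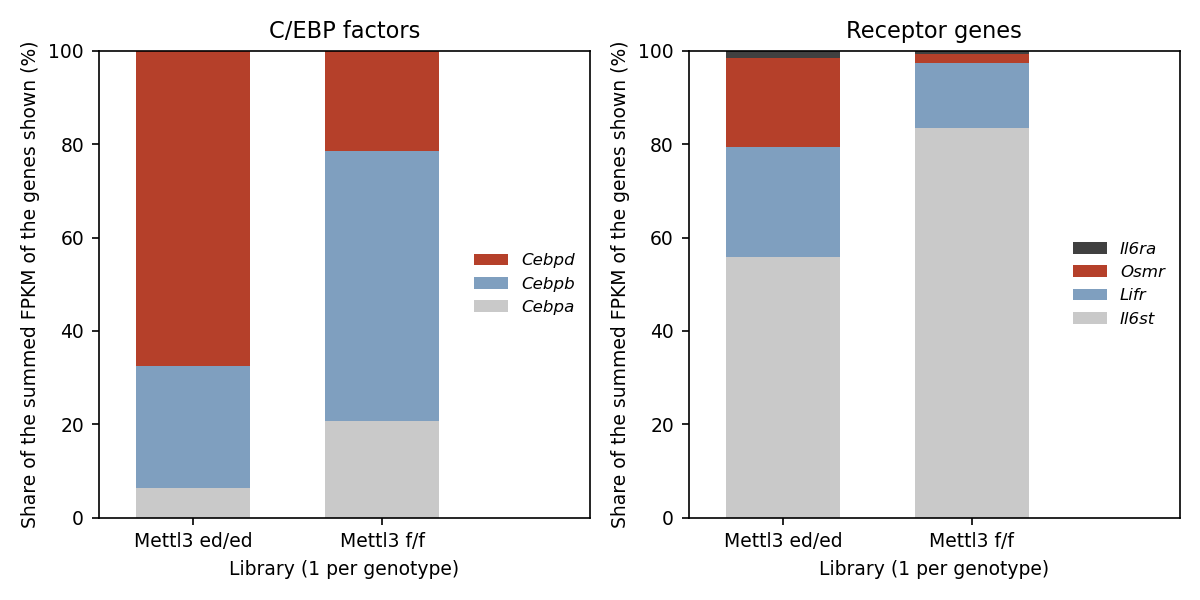
Stacked bars give the share of each gene, in percent, of the summed FPKM of Cebpa, Cebpb and Cebpd (left) and of Il6st, Lifr, Osmr and Il6ra (right), in the ed/ed library and then the f/f library. Cebpd takes 67.4% in ed/ed and 21.6% in f/f, and Il6st takes 55.9% and 83.5%.

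Markers of stroma, vessels, epithelium and the smooth muscle of myometrium are given beside the receptor genes. All 15 stroma markers were tested and 0 exceeded the median over all tested genes. Of them 7 were lower, against 6.22% of all tested genes, with a summed level of 853 FPKM in ed/ed and 1738 in f/f. The count of lower stroma genes was 4 under the median ratio and upper quartile scalings, 3 under reference genes and 2 without the length trend. Of 13 endothelial markers 12 were tested and 7 were lower, against the same 6.22%, with a sum of 139 FPKM in ed/ed and 285 in f/f. That count was 4 under the upper quartile scaling, 3 under the median ratio and 2 under reference genes, without the length trend or with a pseudocount of 5 FPKM. No defining marker of either list was at 0 in both libraries. Epithelial markers summed to 3203 FPKM in ed/ed and 2999 in f/f. Of 15, 1 was called higher and 0 lower, against 2.68% and 6.22% of all tested genes. Of the 15 log2 ratios 10 were above 0, and the list was split. The keratin genes Krt8, Krt18 and Krt19 were at 307, 254 and 222 FPKM in ed/ed, against 430, 345 and 388 in f/f. Krt7 was at 41.1 and 34.8, and Cldn3, which led the sum, at 997 and 967 (all 5 chosen after their values were seen). The count of higher epithelial genes was 4 under the sum scaling and without the length trend, and 5 under the other 3 scalings. Myometrium markers summed to 1352 FPKM in ed/ed and 1045 in f/f, with 10 of 13 log2 ratios above 0. Of these markers 1 was called higher, Cnn1 at 122 and 48.2 FPKM, and 0 lower, against the same shares of all tested genes. The count of higher myometrium genes was 3 or 4 under the other scalings. The part of these cell types in the receptor values was not tested. Long transcripts also had lower ratios, with a median log2 ratio of -0.43 in the longest of 10 groups by length and -0.01 in the shortest. The transcript of Il6st is 8678 nt at its longest, and without the length trend its log2 ratio was -0.50, against 0.74 for Lifr and 2.16 for Osmr.

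Stat3 (chromosome 11, 100885098 to 100939540, minus strand) was at 46.9 FPKM in ed/ed and 46.9 in f/f. Its plain ratio as deposited was 1.00 (counting interval 0.940 to 1.07). Its log2 ratio reached at most 0.34 under the other scalings and was 0.38 without the length trend. Transcript level does not report phosphorylation, which is how STAT3 is switched on. It was the most abundant of the 10 genes in f/f and the second in ed/ed. Of 8 JAK kinases and other STAT factors tested, 0 were higher and 1 lower, with a median log2 ratio of -0.48 against -0.26 for all genes. Jak2, a kinase of cytokine receptors, was at 53.3 FPKM in ed/ed and 128 in f/f. Its log2 ratio of -1.25 fell within 2-fold under 2 of the 4 other scalings and, at -0.91, without the length trend. Stat5a and Stat5b, which carry prolactin and growth hormone signals, were at 4.32 and 7.08 FPKM in ed/ed, against 9.18 and 13.6 in f/f. Stat2, a factor of interferon signalling, was at 23.1 FPKM in ed/ed and 11.8 in f/f, within 2-fold as deposited and at or past it under all 4 other scalings.

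Socs3 (chromosome 11, 117966079 to 117970047, minus strand), the feedback inhibitor that carries the STAT motif printed above, was at 3.23 FPKM in ed/ed and 4.32 in f/f. About 129 and 183 fragments lay behind these values, and the plain ratio was 0.748 (counting interval 0.592 to 0.942). Its log2 ratio of -0.33 was near the median of all genes and shrank to -0.06 under the scaling by reference genes. For each FPKM of Stat3 there were 0.0689 of Socs3 in ed/ed and 0.0923 in f/f. Of 15 other inhibitors of cytokine signals, all tested, 0 were higher and 1 was lower, with a median log2 ratio of -0.22. Socs7 was at 10.5 FPKM in ed/ed and 26.1 in f/f, called under 2 of the 4 other scalings. Without the length trend its log2 ratio was -0.84, within 2-fold. Socs2 and Cish, feedback inhibitors in growth hormone and STAT5 signalling, were at 25.4 and 9.58 FPKM in ed/ed, against 12.9 and 4.99 in f/f. Both lay within 2-fold as deposited, whereas Socs2 was past it under all 4 other scalings and Cish under 3 of the 4. Pias1, an inhibitor of STAT activity, was at 5.26 FPKM in ed/ed and 9.73 in f/f.

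The C/EBP factors differed from each other. Cebpd (chromosome 16, 15887286 to 15891031, plus strand) was at 112 FPKM in ed/ed and 12.7 in f/f, about 6773 and 812 fragments. The plain ratio was 8.84 (counting interval 8.22 to 9.53), and the log2 ratio of 3.05 ranked 6 among the 12165 tested genes. It was the most abundant of the 10 genes in ed/ed and the fourth in f/f. Cebpb (chromosome 2, 167688915 to 167690418, plus strand) was at 43.3 FPKM in ed/ed and 33.9 in f/f, with a plain ratio of 1.28 and a counting interval of 1.16 to 1.41. Cebpa (chromosome 7, 35119293 to 35121928, plus strand), best known from fat, liver and myeloid cells, was at 10.7 FPKM in ed/ed and 12.2 in f/f. The sign of its log2 ratio, -0.17 as deposited, was positive under 3 of the 4 other scalings. Its counting interval of 0.760 to 1.01 around 0.877 spanned equality narrowly. It was taken on a transcript of 2161 nt and would be narrower on the longest, of 2626 nt.

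The balance among the C/EBP factors differed between the libraries. The summed FPKM of Cebpa, Cebpb and Cebpd was 166 in ed/ed and 58.7 in f/f. Cebpd held 67.4% of that sum in ed/ed and 21.6% in f/f, whereas Cebpb held 26.1% and 57.6%, and Cebpa 6.46% and 20.8%. For each FPKM of Cebpb there were 2.58 of Cebpd in ed/ed and 0.374 in f/f, and Cebpb relative to Cebpa was 4.04 in ed/ed and 2.77 in f/f. Of the family's other genes, Ddit3, the stress-induced C/EBP homologue, was at 10.04 FPKM in ed/ed and 13.1 in f/f, and Cebpg (chosen after its values were seen) was at 25.1 and 22.9. Cebpe, known from granulocytes, was listed at 0 in both libraries.

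Genes that overlap or neighbour Cebpd lay within 2-fold. Its only annotated overlap is 562 exonic bases with Spidr on the opposite strand, a DNA repair scaffold gene at 5.02 FPKM in ed/ed and 6.20 in f/f. The nearest listed genes, Mzt2 at 23.9 kb and Pkp2 at 322.3 kb, had log2 ratios of 0.17 and 0.15. Cebpb shares 312 exonic bases with Tmem189 on the opposite strand, at 37.8 FPKM in ed/ed and 33.0 in f/f, and the labels do not say whether the counting used strand.

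Markers of cells rich in C/EBP factors are given beside Cebpd. Of 10 adipocyte markers, Adipoq, Plin1, Cidec, Lep and Retn were listed at 0 in both libraries, and the list summed to 5.86 FPKM in ed/ed and 8.26 in f/f. Of 13 neutrophil markers, Mmp8, Ngp, Camp and Elane were listed at 0 in both, 6 reached 1 FPKM, 1 was higher and 1 lower (0 and 0 with a pseudocount or a filter of 5 FPKM), and the sum was 20.0 FPKM in ed/ed and 30.6 in f/f. Ltf (chosen after its values were seen) led that sum, at 16.2 FPKM in ed/ed and 24.4 in f/f, so most of the sum is that of 1 gene. Of 14 macrophage markers 12 were tested, 3 were higher and 0 lower, against 2.68% and 6.22% of all tested genes. The sum was 397 FPKM in ed/ed and 213 in f/f, with only Cd163 at 0 in both. It was led by Lyz2, a lysozyme gene, at 188 FPKM in ed/ed and 86.6 in f/f. Aif1, a macrophage calcium-binding protein gene, was at 22.3 FPKM in ed/ed and 7.27 in f/f. Of the 12 log2 ratios 10 were above 0. Fcgr1, an Fc receptor gene, was at 0.198 and 1.29 FPKM, and Csf1r (chosen after its values were seen) at 3.02 and 3.97. The part of macrophage content in the Cebpd value was not tested.

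**Figure D3:**
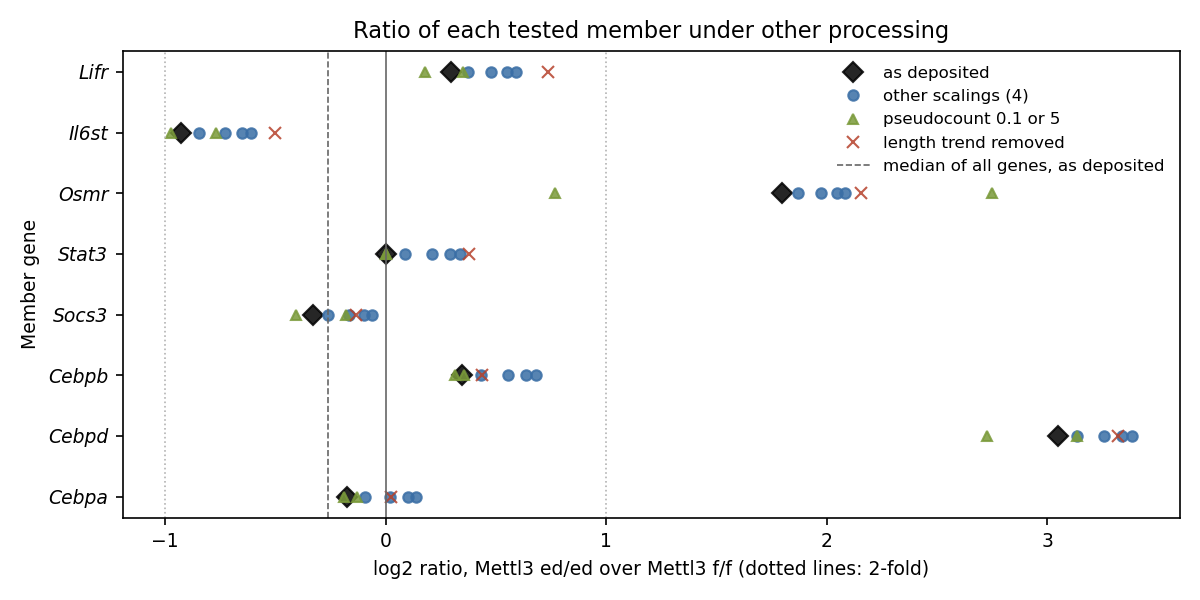
Log2 ratio of ed/ed over f/f for the 8 tested genes, as deposited (black diamonds), under 4 other scalings (blue circles), with pseudocounts of 0.1 and 5 FPKM (green triangles) and with the length trend removed (red crosses). Cebpd stays between 2.73 and 3.38, Osmr runs from 0.77 to 2.75, and Il6st stays below 0 and within 2-fold.

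Of 21 genes known as STAT3 targets, leaving out those of the axis, 20 reached 1 FPKM, with 0 higher and 1 lower, and their median log2 ratio was 0.27 against -0.26 for all genes. Hif1a, the hypoxia-inducible factor gene, was at 84.03 FPKM in ed/ed and 219 in f/f, and its exons overlap 148 bases of another gene model on the same strand and 330 bases of an antisense one. Pim3, a survival kinase gene, was at 27.7 FPKM in ed/ed and 54.3 in f/f. Fos was at 9.57 FPKM in ed/ed and 4.78 in f/f, within 2-fold as deposited and past it under 3 of the 4 other scalings. Of the 20 log2 ratios 12 were above 0 and 16 above the median of all genes.

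Acute-phase genes include known targets of C/EBPδ and STAT3 in liver. Of 22 listed, 10 reached 1 FPKM, 4 were higher and 0 lower, against a background of 2.68%, and their median log2 ratio was 0.75. Lbp, which encodes the lipopolysaccharide-binding protein, was at 132 FPKM in ed/ed and 25.7 in f/f. Complement C3 was at 13.9 FPKM in ed/ed and 1.67 in f/f, and Lcn2, whose lipocalin product binds bacterial siderophores, at 9.81 and 2.201. Saa3, a serum amyloid gene, was at 11.8 FPKM in ed/ed and listed at 0 in f/f. Saa3 entered through its ed/ed value only, and its exact 0 in f/f can be a failed estimate, as for Lif. These 4 were past 2-fold under all 4 other scalings, but those raise every ed/ed value and so could not undo a higher call. Saa2, Orm2, Orm3, Fga, Fgg and Itih4 were listed at 0 in both libraries. Lbp, Saa3, C3 and Lcn2 were already known to be higher when the list was chosen, so the count is no independent support.

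Of 14 genes tied to LIF action or implantation in the uterus, 12 reached 1 FPKM, 0 were higher and 2 lower, with a median log2 ratio of -0.28. Of all tested genes 2.68% were higher and 6.22% lower. Coch, which encodes cochlin and is induced by LIF in mouse uterus, was at 0.569 FPKM in ed/ed and 5.77 in f/f. Sgk1, a kinase gene of epithelial ion transport, was at 17.6 FPKM in ed/ed and 73.2 in f/f. Both stayed past 2-fold under all 4 other scalings. Ihh, the epithelial hedgehog ligand, was at 21.7 FPKM in ed/ed and 41.04 in f/f, and Bmp2, a decidual signal, at 0.868 and 2.32. Msx1, a homeobox gene of uterine receptivity, was at 486 FPKM in ed/ed and 443 in f/f, and Acod1, an epithelial gene induced before implantation, at 247 and 202 (both chosen after their values were seen).

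**Figure D4:**
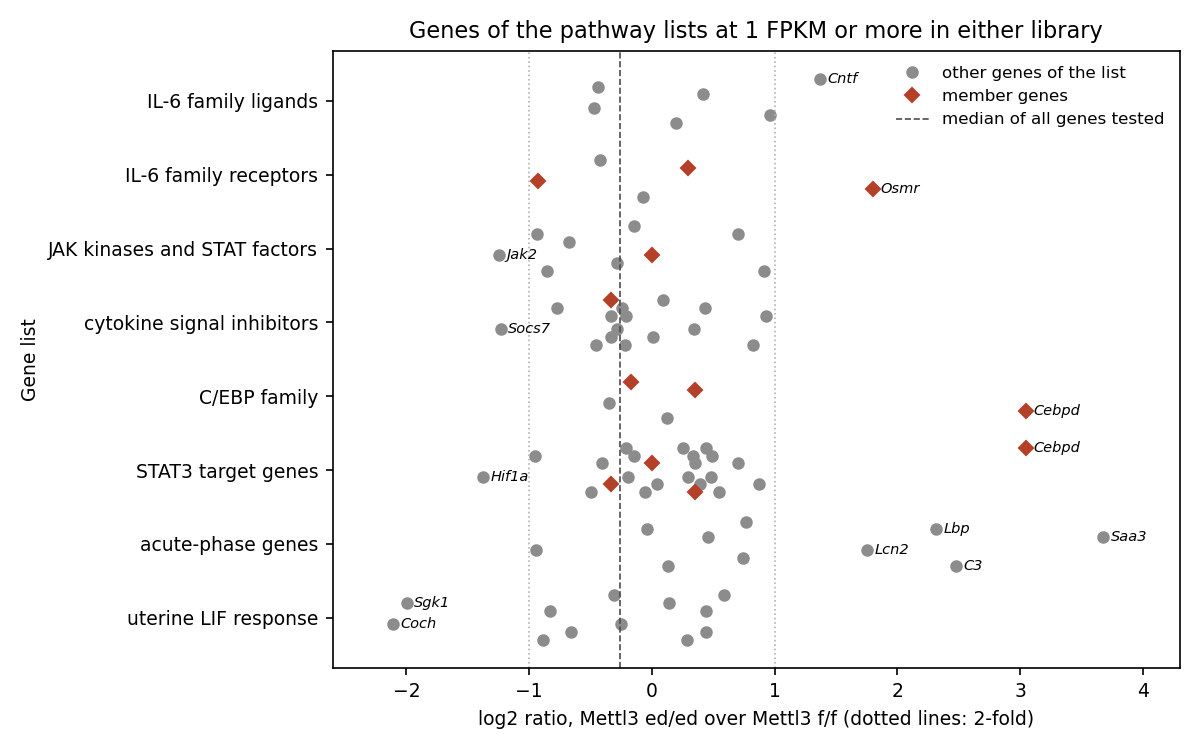
Log2 ratio of ed/ed over f/f for the genes of 8 lists that reached 1 FPKM in either library, with genes of the axis as red diamonds, other genes as grey circles and names for those past 2-fold. Saa3 is listed at 0 in f/f, so its place depends on the pseudocount, and the dashed line is the median of all tested genes.

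The enzyme encoded by Mettl3 acts on a short RNA motif, of which GGACT is the best-known form in DNA letters. The longest coding transcripts of the 10 genes held between 3 and 15 copies. The density was 1.33 per kb in Cebpd, 0.911 in Osmr, 1.15 in Il6st, 1.18 in Socs3 and 0.497 in Stat3, against a median of 1.05 and quartiles of 0.643 and 1.52 over 12111 tested genes. Cebpb had the highest density of the 10 genes, at 2.66 per kb. A motif copy is a description of sequence, and m6A was not measured in the data used here.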

How the data were processed

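Total RNA of whole uterus was extracted with TRIzol and made into libraries with a TruSeq RNA kit, per the labels' protocols. The authors deposited 1 value per gene, taken here as FPKM because the submitters' processing notes name HISAT2 2.2.1 and Cufflinks 2.2.1; the header names no unit. The notes name builds mm9 and mm10 without a role. For annotation, strand setting and multi-read handling the sources used here give nothing.

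Values were used as deposited, with a pseudocount of 1 FPKM, a filter of 1 FPKM in either library and a 2-fold rule. The fit covered all genes, and no p-value was made with 1 library per genotype. Members and lists were chosen with earlier results of these data known. Named genes were all 10 members, Mettl3 and up to 4 genes per list with the largest absolute ratio; any other gene was chosen after its values were seen, as marked in the text or, unmarked, for its position (Osm, Zfp91, Rictor, Spidr, Mzt2, Pkp2, Tmem189) or because it is listed at 0 in both libraries. The lists (257 entries, 256 matched by symbol) came from textbook knowledge. Virma was not analysed here, and 1 gene of the JAK and STAT list is not reported here.

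The libraries summed to 491403 FPKM in ed/ed and 522049 in f/f. Fragments were estimated from the spacing of low values in genes with 1 transcript over 1000 nt, with 250 nt taken off each length (concentration 0.405 in ed/ed and 0.362 in f/f, where 1 would be exact). Intervals are 95% Clopper-Pearson intervals on fragments of the shortest coding transcript over 1000 nt, and cover counting error only. Longer transcripts would give more fragments and narrower intervals. Positions and lengths are GENCODE M21 on GRCm38, matched by identifier for 20557 genes. They say where genes lie, not reads. A lowess curve of the ratio on log2 length (fraction 0.3) gave the length trend. Scripts were tested on simulated data and used Python 3.11.15, pandas 2.3.3, scipy 1.17.1 and statsmodels 0.14.6.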

Additional observations from a re-analysis of the deposited data

How the results depend on the processing

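Across 10 alternatives Cebpd remained called higher in each, with log2 ratios from 2.73 to 3.38. Only the pseudocount of 5 FPKM lowered its ratio, to 2.73. The scalings and the removal of the length trend raised it, and the filters and the 1.5-fold rule left it unchanged, so these could not undo the call. The count of axis genes called higher was 2, and 1 with a pseudocount of 5 FPKM or a filter at 5 FPKM, where Osmr fell within 2-fold or was left out. The count called lower was 0, and 1 (Il6st) with a 1.5-fold rule. Cebpa changed sign under 3 scalings and without the length trend, and Lifr, Il6st, Stat3, Socs3 and Cebpb kept theirs. The scalings and the removal of the length trend raised all these ratios, and a pseudocount cannot change a sign. The positive ratios of Lifr, Stat3 and Cebpb therefore could not have changed sign. The scalings (sum, upper quartile, median ratio and reference genes) shifted log2 ratios by 0.09, 0.21, 0.30 and 0.34. Of all genes past 2-fold, 30.1% were higher as deposited and 38.9%, 52.1%, 60.8% and 65.6% under these, with 57.5% after removal of the length trend. Genes called numbered 326 higher and 757 lower as deposited, 489 and 1336 with a pseudocount of 0.1, 112 and 207 with 5, 856 and 2850 with the 1.5-fold rule, and 667 and 350 with reference genes. Over the alternatives, calls of lists without axis genes ran from 4 to 6 higher for acute-phase genes, from 1 to 5 lower for uterine LIF response genes and from 0 to 4 lower for JAK and STAT genes. They ran from 2 to 13 lower for stroma, from 2 to 11 lower for endothelium and from 1 to 6 higher for epithelium. For myometrium they ran from 1 to 5 higher, for gland from 0 to 6 and for macrophages from 2 to 4. For cytokine signal inhibitors, other ligands and STAT3 targets they ran from 0 to 2 higher. No paired analysis was possible because each genotype has 1 library. Depth limits Lif and Il6ra, with at most 43 estimated fragments in a library.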
